A study of Danio rerio with 4 samples.

Results

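Semaphorins, ephrins, Slits, netrins and their receptors are the classical guidance cues, and their genes were read here in the distal tip of the regenerating caudal fin of adult zebrafish (*Danio rerio*). Members were chosen by a rule on gene symbols, set with earlier results of these data known. Their counts and shares are thus a description only. The rule took counted Ensembl genes whose symbol names a semaphorin, plexin, neuropilin, ephrin, Eph receptor, Slit, Robo, numbered netrin, Unc5 receptor or Dcc. It left out the genes named UNC5D and the netrin-G genes NTNG1 and NTNG2, which were listed among partner genes. The rule gave 96 of 31901 counted genes, with 80 different symbols. The fish were longfin heterozygous, a dominant overgrown-fin genotype that the study's title ties to *kcnh2a*, a potassium channel gene expressed out of place, or wildtype clutchmates. All fish, wildtype included, carried the sp7:eGFP transgene, which marks osteoblasts, and the tissue was the GFP-negative end of the regenerate 96 hours after amputation. Each of the 2 libraries per genotype held the pooled tips of 4 fins. Whether the pools came from separate clutches or days is not given in the sources used here, so each p-value rests on the spread among these pools alone, which may be technical.

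Guidance cues steer moving cells and growing axons by attraction or repulsion. Most secreted class 3 semaphorins bind neuropilins, which signal through plexins, whereas most membrane-bound semaphorins bind plexins directly. Ephrins and Eph receptors sit on facing cells and signal both ways on contact, which keeps tissue boundaries sharp. Slits act on Robo receptors, mostly as repellents, and netrins attract through Dcc and repel through Unc5 receptors. The same genes are used by blood vessels, epithelia and mesenchyme. In regenerating zebrafish fins, Sema3d has been described downstream of the gap junction protein Connexin43, with a neuropilin and a class A plexin as receptors.

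Reads in genes numbered 19428186 to 23157979 per library. Of the 2 counted genes named KCNH2, ENSDARG00000029881 was read 7 and 21 times in longfin and 0 and 1 times in wildtype samples. The other, ENSDARG00000106473, was read 1 and 3 times in longfin and 4 and 1 times in wildtype samples, and the symbol table does not say which of the 2 is *kcnh2a*. In CPM (each library's reads scaled to a common depth by edgeR's TMM factors), 0 of 14 basal epidermis markers, 0 of 19 superficial epidermis markers and 2 of 28 blastema mesenchyme markers stayed below 1 in every library. The osteoblast gene SP7 was also present, at 45.8 and 57.4 CPM in longfin and 45.4 and 56.1 CPM in wildtype tissue, although the tissue was taken as GFP-negative. Of 23 nerve and glia markers, 15 stayed below 1 CPM in every library, among them the myelin gene *mbpa* and the neurofilament genes *nefla*, *nefma* and *nefmb*. By edgeR's adjusted p, 0 genes were called in the lists for nerve and glia, endothelium, osteoblasts, basal epidermis, macrophages and neutrophils, pigment cells and red blood cells. At an unadjusted p under 0.05 in edgeR these lists held 1, 2, 0, 3, 4, 1 and 0 genes, in that order. The genes tested in them numbered 9, 15, 9, 14, 13, 7 and 7. The highest shares were 30.8% for macrophages and neutrophils and 21.4% for basal epidermis, against 9.48% of all genes. DESeq2's adjusted p called 1 basal epidermis gene, 1 macrophage and neutrophil gene and 0 in the other 5 lists. Of 19 superficial epidermis markers, a list that also covers the intermediate epidermis, edgeR called 3 and DESeq2 7, and 12 (63.2%) were under that unadjusted p. Of 26 tested blastema mesenchyme markers edgeR called 0 and DESeq2 1, and 10 (38.5%) were under it. Over all genes tested, edgeR's adjusted p called 0.403% and that of DESeq2 1.58%, so 0 calls in a short list says little. The marker lists were chosen with earlier results of these data known, so their counts and shares are a description only.

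Most guidance genes were expressed in the fin tip, and none of them differed between the genotypes past the adjusted threshold. Averaged over the 4 libraries, 13 members stood at 100 CPM or more, 47 between 10 and 100, 28 between 1 and 10, and 8 below 1 CPM. CPM is not corrected for transcript length, and no lengths were used, so these values order a gene's libraries and not the genes. Together the 96 members took 0.413 and 0.393% of the reads in genes in longfin libraries and 0.384% in each wildtype library. After TMM scaling their summed levels overlapped, at 4054 and 3924 CPM in longfin and 4067 and 3708 CPM in wildtype tissue. Of the members, 90 passed the low count filter and were tested. In these bulk samples, fewer cells of a type and less RNA per cell cannot be told apart.

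None of the 90 members passed an adjusted p of 0.05 by edgeR's quasi-likelihood test (Benjamini-Hochberg over all genes), and the lowest adjusted p was 0.207. In the same fit 0.403% of 18366 genes passed. DESeq2 also called 0 members, against 1.58% of all genes. At an unadjusted p under 0.05, edgeR counted 4 members higher and 4 lower in longfin tips. That is 8.89% of the members, against 9.48% of all genes tested (3.66% higher and 5.82% lower). DESeq2 put 4 members under that p, against 5.83% of all genes. These included 0 plexins, neuropilins, ephrin-A genes or netrins, groups that each held 1 of edgeR's 8. The median log2 fold change of longfin heterozygous over wildtype (log2FC) was 0.01 over the members and -0.00148 over all genes, with 47 members above 0 and 43 below. The members ranged from -0.74 to 0.54. In 29 members (32.2%) the 2 longfin values lay both above or both below the wildtype values, against 39.8% of all genes tested.

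**Figure D1:**
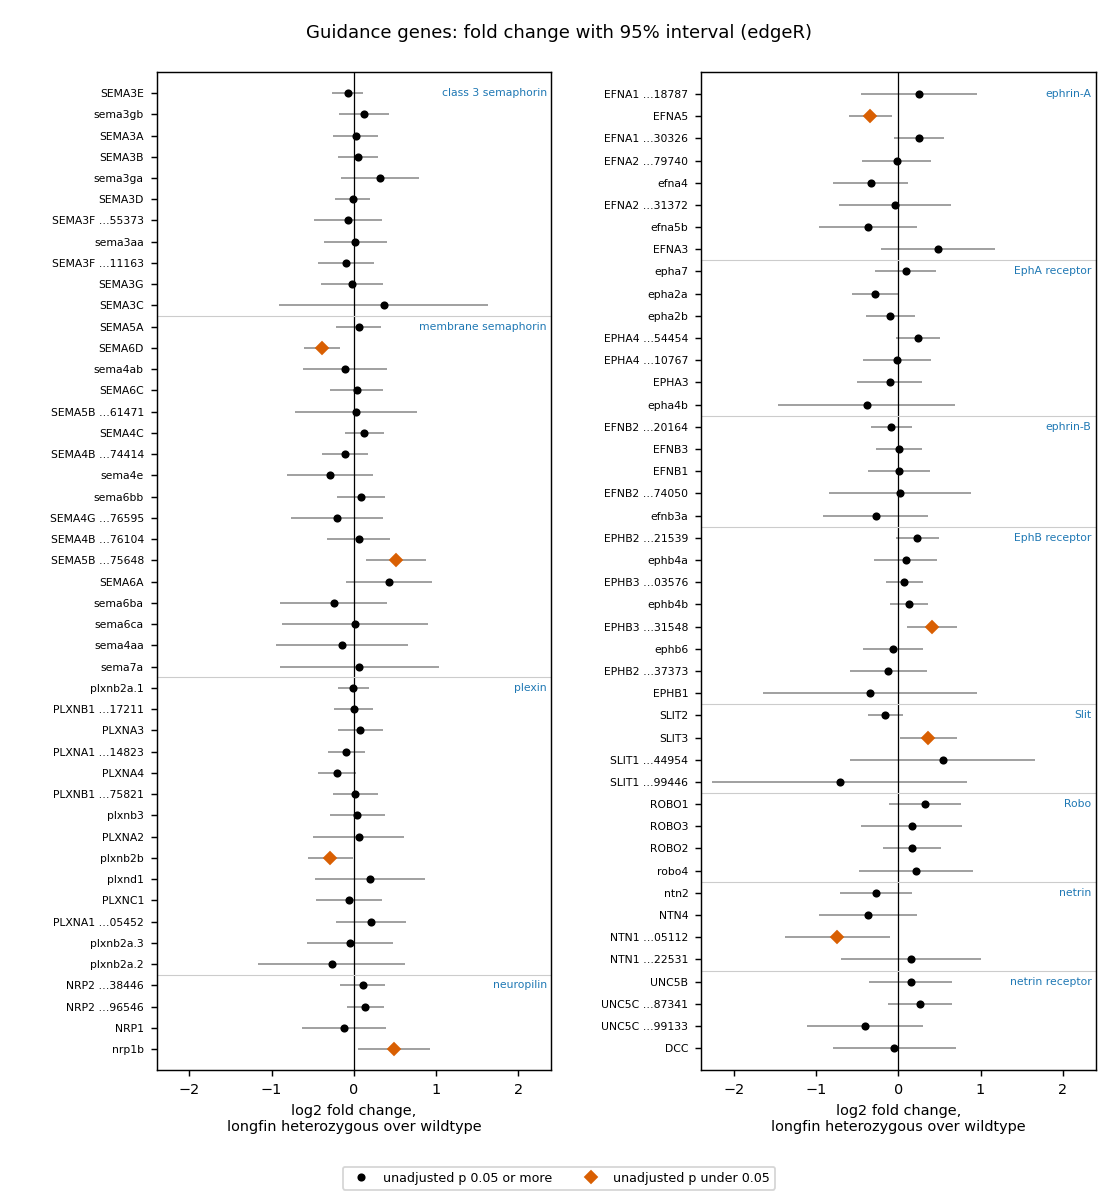
Log2 fold change of longfin heterozygous over wildtype for the 90 tested guidance genes (x axis), with 95% intervals from edgeR's fit as lines. Orange diamonds are the 8 members at an unadjusted p under 0.05, black points the others, and copies that share a symbol carry the end of their Ensembl ID.

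How far each gene's change was bounded varied with its level and spread. The 95% interval of the log2FC, taken gene by gene from the fit, lay between -1 and 1 for 79 of 90 members and between -0.5 and 0.5 for 38. The 11 whose interval passed -1 or 1 were both SLIT1 genes, both NTN1 genes, SEMA3C, *sema7a*, EPHB1, *epha4b*, EFNA3, *plxnb2a.2* and the UNC5C gene ENSDARG00000099133. All but the SLIT1 gene ENSDARG00000044954 stayed below 5 CPM in each library. In 69 members (76.7%) the 2 libraries of at least 1 genotype lay further apart than the genotype means, against 72.4% of all genes tested.

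Among the secreted class 3 semaphorins, 0 of 11 tested genes had an unadjusted p under 0.05 in edgeR or DESeq2. SEMA3E (ENSDARG00000036571), a vessel repellent in mouse, had 156 and 151 CPM in longfin tips, against 163 and 161 CPM in wildtype tips. Its log2FC was -0.08 ± 0.08 (SE), with a 95% interval of -0.26 to 0.11. The related *sema3gb* had 166 and 143 CPM in longfin and 158 and 127 CPM in wildtype tissue, so the genotypes overlapped (log2FC 0.12). SEMA3D (ENSDARG00000017369), named here for its known role in fins, was the flattest of the group across libraries. It had 44.1 and 43.5 CPM in longfin tips, against 44.0 and 44.3 CPM in wildtype tips, with a log2FC of -0.01 ± 0.09 and an interval of -0.23 to 0.20. The axon repellent gene SEMA3A (ENSDARG00000042210) had 119 and 112 CPM in longfin and 103 and 125 CPM in wildtype tissue. Over the group, log2FC values ran from -0.10 for the SEMA3F gene ENSDARG00000011163 to 0.36 for SEMA3C. The secreted semaphorin gene *sema3ga*, whose genotypes overlapped, had a log2FC of 0.32 ± 0.19. SEMA3C had 1.71 and 3.75 CPM in longfin and 1.19 and 2.84 CPM in wildtype tissue, so its libraries differed more within each genotype than between them.

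The membrane semaphorins held the member with the lowest p of all. SEMA6D (ENSDARG00000011533), which encodes a transmembrane ligand of class A plexins, had 129 and 126 CPM in longfin tips, against 176 and 157 CPM in wildtype tips. Both longfin values lay below both wildtype values, and the log2FC was -0.39 ± 0.09, with an unadjusted p = 0.00373 and an adjusted p = 0.207 in edgeR's test. Beside it, the summed CPM of 19 superficial epidermis markers was 12812 and 13461 in longfin and 16682 and 16959 in wildtype tips. Of these sums, *krt91* held 4206 and 4460 CPM in longfin and 5106 and 5927 CPM in wildtype tips. The gene *krt4* held 2232 and 2670 CPM in longfin and 2915 and 2784 CPM in wildtype tips. Of the 19 markers, 16 had a log2FC below 0 and 3 above. Among them edgeR called 3 lower and 0 higher, against 0.294% of all genes lower and 0.109% higher. At an unadjusted p under 0.05 in edgeR, 12 of the 19 were lower (63.2%, against 5.82% of all genes) and 0 higher (against 3.66%). The marker list was chosen with earlier results of these data known, so these counts and shares are a description only. The part of the marker difference in the value of SEMA6D was not tested. Of the 2 genes named SEMA5B, ENSDARG00000075648 had 9.71 and 9.71 CPM in longfin and 7.02 and 6.59 CPM in wildtype tissue, a log2FC of 0.52 ± 0.16 with an adjusted p = 0.357. The other copy, ENSDARG00000061471, stood at 0.03, with 49.3 and 39.0 CPM in longfin and 55.0 and 31.9 CPM in wildtype tissue. SEMA5A (ENSDARG00000058821), of the thrombospondin-repeat class, had 187 and 165 CPM in longfin and 184 and 154 CPM in wildtype tissue. SEMA6A (ENSDARG00000102165), a relative of SEMA6D, had 7.73 and 8.17 CPM in longfin, against 4.70 and 6.96 CPM in wildtype tips, and its log2FC of 0.43 ± 0.22 did not pass (adjusted p = 0.63 in edgeR). The immune semaphorin gene *sema4ab* had 137 and 102 CPM in longfin and 149 and 109 CPM in wildtype tissue, with both genotypes lower in replicate 2. The 17 tested genes of this group ranged from -0.39 to 0.52, with 10 above 0 and 7 below.

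Of the plexins, the signalling receptors of semaphorins, 6 log2FC values were above 0 and 8 below. The 14 genes together had 590 and 606 CPM in longfin and 631 and 580 CPM in wildtype tissue, so the genotypes overlapped. For *plxnb2a.1* the values were 200 and 193 CPM in longfin and 200 and 196 CPM in wildtype tissue, with a log2FC of -0.01 and an interval of -0.19 to 0.18. The PLXNB1 gene ENSDARG00000017211 had 56.6 and 56.0 CPM in longfin and 60.1 and 52.8 CPM in wildtype tissue. PLXNA3 (ENSDARG00000007172), a class A plexin named here because that class serves Sema3d, stood at 0.08. The lone plexin at an unadjusted p under 0.05 in edgeR was *plxnb2b*, and DESeq2 put 0 plexins there. It had 21.9 and 20.8 CPM in longfin, against 27.6 and 24.6 CPM in wildtype tips (log2FC -0.29 ± 0.12, adjusted p = 0.505 in edgeR). PLXNA4 (ENSDARG00000019328) had 52.3 and 47.6 CPM in longfin, against 58.9 and 56.4 CPM in wildtype tips, without overlap (log2FC -0.21 ± 0.10, adjusted p = 0.587 in edgeR). The vessel plexin gene *plxnd1* had 17.0 and 21.4 CPM in longfin and 21.2 and 12.5 CPM in wildtype tissue, a 1.70-fold gap between the wildtype libraries that exceeded its difference between genotypes. The summed CPM of 17 endothelial markers was 133 and 150 in longfin and 131 and 153 in wildtype tips.

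Neuropilins, the ligand-binding partners of class A plexins and also co-receptors of Vegf, had 258 and 312 CPM in sum in longfin and 262 and 271 CPM in wildtype tips. Both NRP2 genes were slightly above 0 in log2FC. ENSDARG00000038446 had 119 and 148 CPM in longfin and 127 and 121 CPM in wildtype tissue (0.11), and ENSDARG00000096546 had 96.4 and 107 CPM in longfin and 89.2 and 95.2 CPM in wildtype tissue (0.14). Neither passed at an unadjusted p under 0.05 in edgeR. Of the neuropilin-1 genes, *nrp1b* had 8.63 and 7.19 CPM in longfin, against 5.35 and 5.92 CPM in wildtype tips. Its genotypes did not overlap, and its log2FC was 0.49 ± 0.19, with an unadjusted p = 0.0339 and an adjusted p = 0.469 in edgeR's test. The other, NRP1 (ENSDARG00000102153), stood at -0.12, with an interval of -0.63 to 0.39. DESeq2 put 0 neuropilins at an unadjusted p under 0.05.

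**Figure D2:**
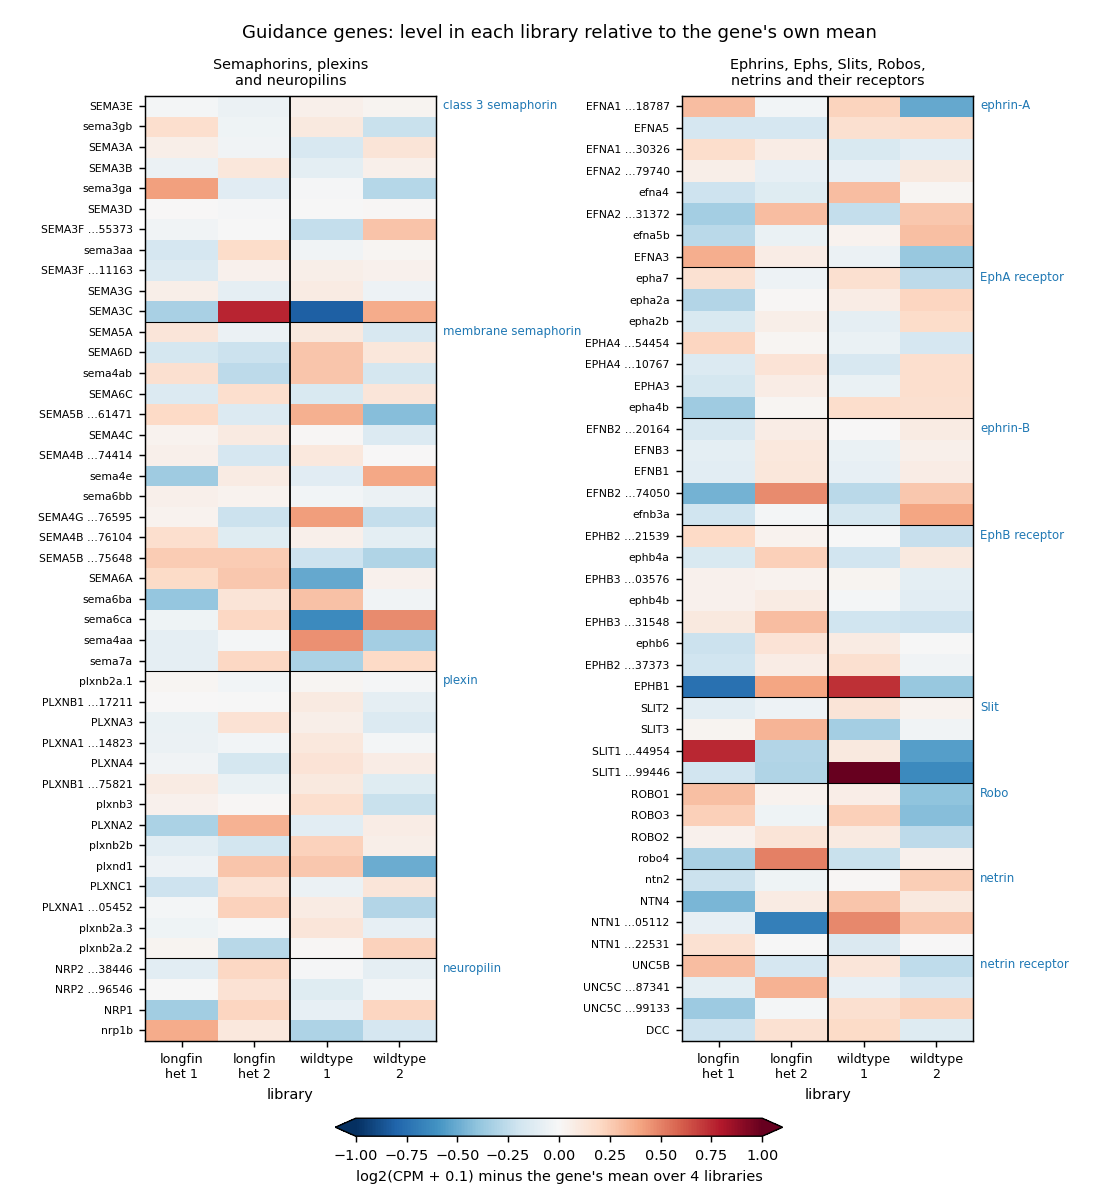
Level of each tested guidance gene in each library (columns, longfin heterozygous left and wildtype right), as log2(CPM + 0.1) minus the gene's mean over the 4 libraries. Colours stop at 1 and -1, and SEMA3C, EPHB1 and both SLIT1 genes show libraries of 1 genotype with clearly different colours.

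Ephrin-A genes encode ligands tethered to the membrane by a lipid anchor, and 3 of the 8 tested had log2FC values above 0 and 5 below. EFNA1 (ENSDARG00000018787) had 89.4 and 70.7 CPM in longfin and 84.2 and 50.5 CPM in wildtype tissue. The range within wildtype thus covered the lower longfin value, and the log2FC of 0.25 had an interval of -0.45 to 0.96. EFNA5 (ENSDARG00000089790), a repellent of topographic maps, was steadier. It had 17.4 and 17.4 CPM in longfin, against 21.9 and 22.1 CPM in wildtype tips, a log2FC of -0.34 ± 0.11 with an unadjusted p = 0.0189 and an adjusted p = 0.402 in edgeR's test. For *efna5b*, a second ephrin-A5 gene, the log2FC was -0.36, with 2.43 and 2.83 CPM in longfin and 3.02 and 3.67 CPM in wildtype tissue. The group ranged from -0.36 to 0.48. In DESeq2 0 of the 8 tested had an unadjusted p under 0.05.

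EphA receptor genes, the receptors of ephrin-A ligands, had 0 of 7 tested genes at an unadjusted p under 0.05 in edgeR and 0 in DESeq2. For *epha7* the values were 131 and 114 CPM in longfin and 132 and 98.6 CPM in wildtype tissue. *epha2a*, whose mammalian counterpart is an epithelial receptor, had 92.0 and 114 CPM in longfin, against 119 and 131 CPM in wildtype tips. All longfin values lay below the wildtype values, with a log2FC of -0.28 ± 0.12, an unadjusted p = 0.0541 and an adjusted p = 0.539 in edgeR's test. The EPHA4 gene ENSDARG00000054454, a receptor that binds ephrins of both classes, had 40.6 and 35.4 CPM in longfin, against 33.3 and 31.1 CPM in wildtype tips (log2FC 0.24 ± 0.11, adjusted p = 0.583). The related *epha2b* stood at -0.10, with an interval of -0.40 to 0.21.

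Ephrin-B genes encode transmembrane ligands that also signal into their own cell, and all 5 overlapped between genotypes. EFNB2 (ENSDARG00000020164), a marker of arteries, had 82.6 and 96.9 CPM in longfin and 92.7 and 97.7 CPM in wildtype tissue. EFNB3 (ENSDARG00000042277) had 24.5 and 28.3 CPM in longfin and 25.1 and 27.2 CPM in wildtype tissue, with a log2FC of 0.01. The group ranged from -0.28 to 0.02.

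EphB receptor genes together had 273 and 286 CPM in longfin, against 259 and 246 CPM in wildtype tips. These sums did not overlap, and 5 of 8 log2FC values were above 0. The EPHB2 gene ENSDARG00000021539 had 104 and 92.8 CPM in longfin, against 90.4 and 77.4 CPM in wildtype tips, with a log2FC of 0.23 ± 0.11 and an adjusted p = 0.604 in edgeR's test. The EPHB3 gene ENSDARG00000031548 had 20.2 and 23.5 CPM in longfin, against 16.5 and 16.4 CPM in wildtype tips, with a log2FC of 0.41 ± 0.13, an unadjusted p = 0.0146 and an adjusted p = 0.367. The other EPHB3 gene, ENSDARG00000103576, stood at 0.07, with an interval of -0.16 to 0.30. For *ephb4a*, the receptor of veins, the values were 44.5 and 58.2 CPM in longfin and 43.3 and 53.0 CPM in wildtype tissue, so its libraries lay further apart within a genotype than between genotypes.

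Slit genes encode large secreted repellents. SLIT3 (ENSDARG00000034268) had 60.8 and 75.7 CPM in longfin, against 47.2 and 58.4 CPM in wildtype tips. The lower longfin library thus stood just above the higher wildtype library, and the log2FC was 0.37 ± 0.15, with an unadjusted p = 0.0417 and an adjusted p = 0.497 in edgeR's test. Beside it, the summed CPM of 28 blastema mesenchyme markers was 71022 and 70294 in longfin and 65719 and 56901 in wildtype tips. Of these sums, *col1a1a* alone held 32965 and 31708 CPM in longfin and 30784 and 22299 CPM in wildtype tips. Of these markers, edgeR called 0 of 26 tested at the adjusted threshold and DESeq2 1. The unadjusted p of edgeR was under 0.05 for 9 higher markers and 1 lower one, 38.5% against 9.48% of all genes. This list too was chosen with earlier results of these data known, so its counts and shares are a description only. The part of these markers in the value of SLIT3 was not tested. SLIT2 (ENSDARG00000004246) had 59.8 and 62.3 CPM in longfin, against 70.3 and 65.9 CPM in wildtype tips, a log2FC of -0.16 ± 0.09 that also did not pass. The SLIT1 genes had the widest intervals among the Slits. ENSDARG00000044954 had 26.8 and 12.9 CPM in longfin and 16.9 and 10.8 CPM in wildtype tissue (log2FC 0.54, interval -0.59 to 1.66). In ENSDARG00000099446, 1 wildtype library stood at 3.08 CPM and the other at 0.834 CPM, with 1.17 and 1.08 CPM in longfin tips.

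All 4 Robo genes, the Slit receptors, had log2FC values above 0, between 0.16 and 0.32, and 0 passed at an unadjusted p under 0.05 in edgeR or DESeq2. ROBO1 (ENSDARG00000026784) had 171 and 142 CPM in longfin and 145 and 105 CPM in wildtype tissue, a log2FC of 0.32 ± 0.18 with an adjusted p = 0.673. ROBO3 (ENSDARG00000005645) had 161 and 133 CPM in longfin and 161 and 102 CPM in wildtype tissue. Both were lowest in wildtype replicate 2, and the other 3 libraries overlapped between genotypes. Without wildtype replicate 2 the log2FC of ROBO3 was -0.13 and that of ROBO2 -0.00195, and without longfin replicate 2 that of *robo4* was -0.25. *robo4*, the endothelial member of the family, had 6.43 and 11.5 CPM in longfin and 6.91 and 8.34 CPM in wildtype tissue. The summed Robo level was 358 and 307 CPM in longfin and 333 and 231 CPM in wildtype tissue.

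**Figure D3:**
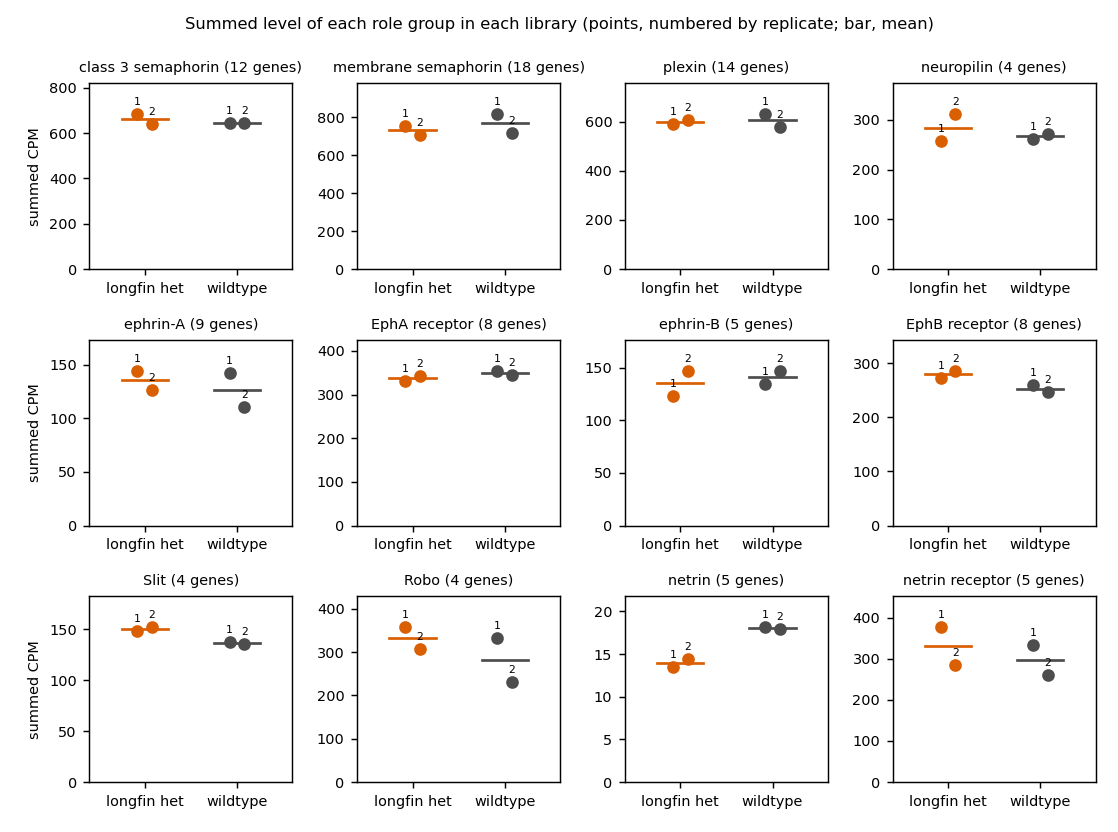
Summed CPM of each role group in each library (points numbered by replicate), longfin heterozygous left and wildtype right, with the mean as a bar and the y axis from 0. The sums of the genotypes do not overlap for EphA receptors and netrins, lower in longfin, or for EphB receptors and Slits, higher in longfin. The genotypes overlap for the other groups, among them plexins, Robos and netrin receptors. Single genes did not overlap in 39.8% of all genes tested, and no such share was taken for sums. Tested genes with a log2FC above and below 0 numbered 2 and 5 (EphA receptors), 1 and 3 (netrins), 5 and 3 (EphB receptors) and 2 and 2 (Slits). The netrin sums are 13.5 and 14.4 CPM in longfin, against 18.1 and 17.9 CPM in wildtype tips.

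Netrin ligands were read at few counts, with no library above 7.67 CPM for any of the 5 genes. Their summed level was 13.5 and 14.4 CPM in longfin, against 18.1 and 17.9 CPM in wildtype tips. The gene with the largest fold among them was NTN1 (ENSDARG00000105112), with 74 and 42 reads in longfin, against 92 and 104 reads in wildtype libraries. As CPM this was 3.33 and 2.16 in longfin and 4.97 and 4.34 in wildtype tips, with a log2FC of -0.74 ± 0.27, an unadjusted p = 0.029 and an adjusted p = 0.453 in edgeR's test. The genes *ntn2* and NTN4 stood at -0.27 and -0.37 without passing, and the other NTN1 gene, ENSDARG00000022531, at 0.15. DESeq2 put 0 netrins at an unadjusted p under 0.05.

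Of the netrin receptors, UNC5B (ENSDARG00000033327), which is also known from vessels, had 354 and 254 CPM in longfin and 310 and 239 CPM in wildtype tissue. The genotypes overlapped, and the log2FC of 0.15 had an interval of -0.36 to 0.66. The UNC5C gene ENSDARG00000087341 had 19.1 and 26.0 CPM in longfin and 19.3 and 18.2 CPM in wildtype tissue. DCC (ENSDARG00000104282), the receptor for attraction, had 35 and 40 reads in longfin and 39 and 40 reads in wildtype libraries. UNC5A had 7 reads in each longfin library and 4 and 7 in wildtype libraries, below the filter. The other 5 members that were not tested, *sema3h*, EPHA6, *efna3a*, *ntn5* and the SEMA4G gene ENSDARG00000088143, had between 1 and 13 reads in each library.

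Among genes listed for binding these receptors or carrying their signals, 1 passed edgeR's adjusted threshold in the fit to all 4 libraries. NGEF (ENSDARG00000076179) encodes ephexin, a guanine nucleotide exchange factor that couples EphA receptors to the actin cytoskeleton in mouse neurons. It fell to 13.0 and 11.2 CPM in longfin tips, against 40.2 and 36.2 CPM in wildtype tips. The log2FC was -1.65 ± 0.13 (SE), with an interval of -1.96 to -1.35 and an adjusted p = 0.00652 in edgeR's test over all genes. DESeq2 and limma voom also called it, with adjusted p-values of 1.83e-15 and 0.012. Leaving out 1 longfin library took edgeR's adjusted p to 0.0591 (without replicate 1, log2FC -1.77) or 0.0728 (without replicate 2, -1.55). Of the 19 superficial epidermis markers given beside SEMA6D, 16 had a log2FC below 0 and 3 above. The part of these markers in the value of NGEF was not tested.

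By edgeR's adjusted p, NGEF was the 1 gene called among 101 tested partner and effector genes (lower in longfin, as for 0.294% of all genes), which cover the proteins that bind these receptors or carry their signals. At an unadjusted p under 0.05 there were 9 higher and 4 lower, 12.9% against 9.48% of all genes, and the median log2FC was 0.03. The ephrin effectors had 3 of 23 genes under that p. The partner list was chosen with earlier results of these data known, so its counts and shares are a description only. RND3 (ENSDARG00000076799), whose product lowers contractility, had 145 and 144 CPM in longfin, against 180 and 177 CPM in wildtype tips (log2FC -0.31, adjusted p = 0.25 in edgeR). The other RND3 gene, ENSDARG00000007396, stood at -0.10. The actin-severing cofilin-like gene *cfl1l* stood at -0.25 (430 and 462 CPM in longfin, 503 and 562 CPM in wildtype tissue). Values above 0 belonged to the adaptor gene NCK1 (ENSDARG00000074262, 0.43), the kinase gene *pak2b* (0.28), the repulsive guidance gene *rgmd* (0.46), *mical3b* (0.61), whose family oxidises actin, and FLRT3 (ENSDARG00000076895, 0.26), whose mammalian product binds Robo1 and Unc5 receptors. None of these 7 passed edgeR's adjusted threshold.

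**Figure D4:**
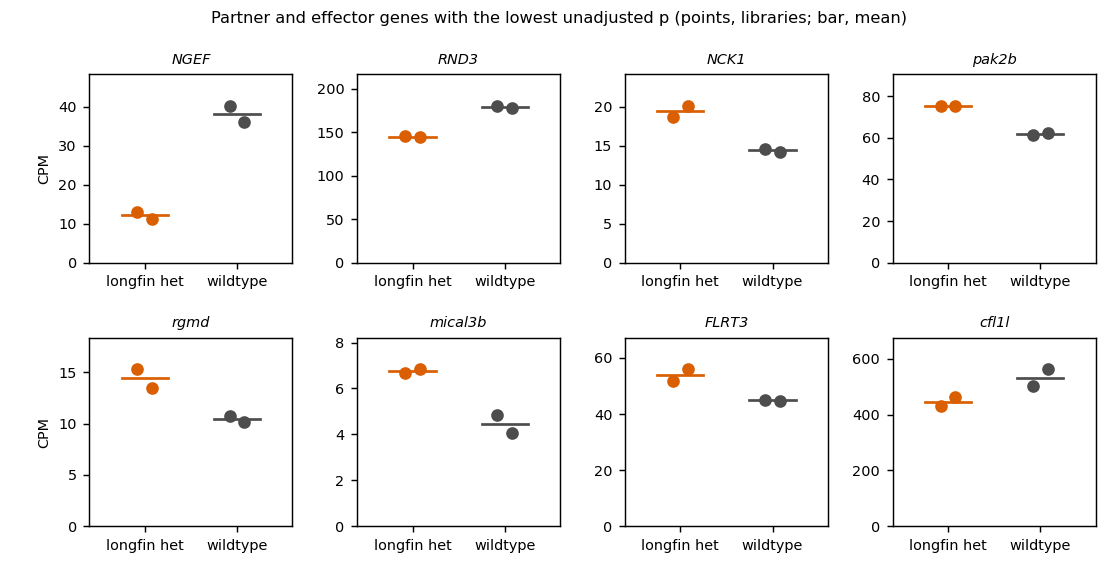
CPM of the 8 partner and effector genes with the lowest unadjusted p, by library (points) with the mean as a bar, longfin heterozygous left and wildtype right, y axes from 0. NGEF stands at 13.0 and 11.2 CPM in longfin, against 40.2 and 36.2 CPM in wildtype tips, and is the gene past the adjusted threshold.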

How the data were processed

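Each deposited table lists unnormalized counts by Ensembl gene, made by the authors with TopHat2 and HTSeq on the GRCz11 (danRer11) build, per the submitters' processing notes. The sources used here name no version, annotation release or strand setting, so whether reads of overlapping antisense genes were kept apart is unknown. Libraries came from a Kapa stranded mRNA kit, per the labels' protocols. The unnamed row, which equals the gene sum, and 5 HTSeq classes entered neither library sizes nor tests. Of all entries counted per library, those not uniquely aligned made up 28.7 to 41.9%, those in no feature 7.78 to 9.31% and ambiguous ones 1.08 to 1.38%, so counts of any member that shares sequence with a copy would be uncertain. No sequences were compared. The 2 libraries of a genotype were not copies of each other (chi-square over its degrees of freedom, 19.0 in longfin and 27.6 in wildtype).

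Symbols came from a table that names 29178 of 31901 IDs and often gives the human symbol in capitals. Where 2 IDs share a symbol, as for 32 members, the ID is printed. Members and lists were chosen with earlier results of these data known. Counts were analysed in R 4.3.3 with edgeR 4.0.16 (filterByExpr, minimum count 10 and total 15, TMM scaling with factors 0.945 to 1.04, robust quasi-likelihood fit, glmQLFTest for genotype, two-sided), fitted to all 4 libraries and adjusted over 18366 genes, with a threshold of 0.05. Standard errors are the fold change over the square root of F, and 95% intervals use the fit's degrees of freedom. Partner and marker lists were matched by symbol or human symbol (107 of 111 partner entries, giving 112 genes). Named members are those at an unadjusted p under 0.05, the 2 of highest CPM per role, and further members named after their values were seen, to show copies, intervals or known roles. Named partners are those past the threshold and the 8 of lowest p, with the other genes named RND3 and NCK1. Alternatives used DESeq2 1.42.0, limma 3.58.1, other scalings and filters, a replicate block and leaving out each library. The fits were also run on simulated counts with larger changes than any member's, so that run does not bear on changes of the members' size.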

Additional observations from a re-analysis of the deposited data

How the results depend on the processing

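No member passed the adjusted threshold under any alternative but the fit with the replicate number as a block. That block gave 4 of 90 tested members past the adjusted threshold, against 794 of 18366 genes tested, a similar share. The 4 were SEMA6D and *epha2a*, lower, and SLIT3 and ROBO1, higher (edgeR adjusted p = 0.00529, 0.0485, 0.0166 and 0.0203). The block also put 18 members at an unadjusted p under 0.05 (20% of members, against 15.9% of all genes). Past the adjusted threshold it gave 5 of 101 tested partner genes and 27 marker genes. No share was taken for the marker genes. Deviations of same-numbered libraries correlated at 0.223 across all genes tested and 0.391 across members, but with 2 pairs and no label saying what a number marks, the numbers are not taken to pair the samples. The number of members at an unadjusted p under 0.05 was 4 with DESeq2 (4.44%, against 5.83% of all genes). With a library left out it was 7 to 12: 7.69% (all genes 6.67%) and 7.61% (all genes 6.65%) on dropping longfin library 1 or 2, and 13.2% (all genes 8.12%) and 8.89% (all genes 9.22%) on dropping wildtype library 1 or 2. The members' median log2 fold change lay between -0.0664 (without longfin heterozygous replicate 2) and 0.0191 (without longfin heterozygous replicate 1) with a library left out. Genes called over the whole table numbered 219 with library size only, 130 with no filter on low counts, 290 with DESeq2, and, with a library left out, 3 (longfin replicate 1), 1 (longfin replicate 2) or 163 (wildtype replicate 2), against 74 in the reported fit. Partner calls were 0 without either longfin library and 1 without either wildtype library. Marker calls, 3 in the reported fit, were 6 with library size only, 6 with no filter, 10 with DESeq2 and 1 to 5 with a library left out. Of the 90 tested members, 52 changed sign in at least 1 alternative. Of the 8 at an unadjusted p under 0.05 in the reported edgeR fit, 0 did so. Sign changes were not counted over all genes, so the 52 do not set the members apart. The causes were not tested.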

Other observations

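Zebrafish keep many guidance genes as pairs of copies, and 16 symbols were carried by 2 counted genes. In 15 of these both copies were tested, and in 6 the log2 fold changes had the same sign. How often copies of other genes did so was not counted. The EFNA1 copies stood at 0.25 and 0.25, and the NRP2 copies at 0.11 and 0.14. Without wildtype replicate 2 the EFNA1 gene ENSDARG00000018787 stood at -0.07. Without longfin replicate 2 the NRP2 gene ENSDARG00000038446 stood at -0.06. The SLIT1 copies lay furthest apart, at 0.54 for ENSDARG00000044954 and -0.71 for ENSDARG00000099446. The NTN1 copies stood at -0.74 for ENSDARG00000105112 and 0.15 for ENSDARG00000022531. The UNC5C copies stood at 0.26 for ENSDARG00000087341 and -0.40 for ENSDARG00000099133. A smaller gap lay between the EPHA4 copies, at 0.24 for ENSDARG00000054454 and -0.01 for ENSDARG00000010767. Differences between copies were not tested.

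Of 57 members that could be matched by a unique symbol to the RefSeq gene order (GRCz12tu, not the build of the counts), the Robo genes formed adjacent pairs. ROBO1 and ROBO2 lay side by side with log2 fold changes of 0.32 and 0.17, and ROBO3 and *robo4* with 0.16 and 0.22. SEMA3D and SEMA3E had 2 genes between them and stood at -0.01 and -0.08. The 3 *plxnb2a* genes were neighbours in a row, at -0.01, -0.27 and -0.04.

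In 17 of the 90 tested members the libraries of at least 1 genotype lay more than 1.5-fold apart, while the genotype means did so in 2. The first count takes the wider of 2 ratios of single libraries and the second 1 ratio of means, so the first tends to be larger. Neither was counted over all genes, so they do not set the members apart. The gene *sema6ca* had 3.15 and 3.75 CPM in longfin and 2.05 and 4.55 CPM in wildtype tips, and PLXNA2 (ENSDARG00000060372) had 28.1 and 44.6 CPM in longfin and 32.6 and 37.0 CPM in wildtype tips. The highest such ratio was in the SLIT1 gene ENSDARG00000099446, 3.69-fold between the wildtype libraries.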
